A study of Mus musculus with 2 samples.

Results

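The C-type lectin genes described here were Clec2d, Clec4f, Clec4g, Clec4d, Clec4n, Clec4a2, Clec4a3, Clec7a, Clec12a and Clec1b, 10 genes in all. Of these, 9 were among the 18193 genes that had a probe set of their own. They were chosen by name, with their ratios in these data already known, and every probe set annotated to 1 of them alone was used. That gave 12 probe sets. No probe set of Clec12a was analysed here. The samples were 2 pools of mouse liver RNA, each made from 3 livers and read on 1 array. The first pool came from mice given antagomir-122, a cholesterol-coupled synthetic RNA that pairs with and silences the hepatocyte microRNA miR-122, at 80 mg/kg per day in 3 daily injections. The second came from mice given the scrambled control mm-antagomir-122 at the same dose and schedule. Livers were taken 24 h after the last injection, and the strain, sex and age of the mice were not given in the sources used here.

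C-type lectins are membrane and secreted proteins that share a carbohydrate-recognition type of fold, and many sense sugars of microbes or of damaged cells. Receptors such as dectin-1 and dectin-2 signal through the kinase Syk and start cytokine production, whereas others carry inhibitory motifs and restrain the cell. In liver the family divides by cell type, with receptors of Kupffer cells (the resident macrophages), of the sinusoidal endothelium that lines the blood channels, and of monocytes, neutrophils and dendritic cells that enter from blood. Clec2d is different in kind, since its protein, Clr-b, is a ligand that inhibits natural killer cells through the receptor NKR-P1B.

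Values are MAS5 signal intensities, the linear summary of a probe set on an Affymetrix array, and ratios are log2 of the antagomir-122 signal over the mm-antagomir-122 signal as deposited. A floor at a signal of 238, the 60th percentile of the mean log2 signals of the non-control probe sets, marked dim probe sets, and 10003 genes lay above it. With 1 array per group there is no replicate check, so no p-value is given and a threshold of 1.5-fold describes size. Paired probe sets of one gene differed with an SD of 0.28 per probe set in log2 units (3860 pairs), which leaves out the spread between animals. It was 0.35 (589 pairs) in the dimmest tercile of genes, 0.30 (1459 pairs) in the middle tercile and 0.23 (1812 pairs) in the brightest tercile. The median log2 ratio of all genes above the floor was 0.00, with 512 genes past the threshold upwards and 262 downwards. Spiked hybridization controls had a median log2 ratio of -0.27 over 18 probe sets, so scaling on them would add 0.27 to every ratio and give 1693 genes higher and 63 lower. Centring each array on its median moves every ratio down by 0.14, with 279 higher and 615 lower.

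The promoter sequences of 4 genes are shown because their ratios span the range found here, from the highest (Clec2d) through the myeloid receptors Clec4a3 and Clec7a to the lowest (Clec4g). Each is the 250 bases before the annotated start, 5′ to 3′ on the gene's strand, from RefSeq on GRCm38.p6. Capitals mark matches, on either strand, to GAAA followed after a gap of 2 bases by GAAA again (the core of the interferon-stimulated response element) or GAGGAA (the core bound by the myeloid factor PU.1), and these motifs do not overlap in the sequences shown. They were chosen after the sequences and ratios had been seen. Clec4a3 and Clec7a each have 2 listed starts, and the window of 1 is shown. For Clec4a3 it is the window with a match, since the other window held none.
Clec2d, chr6:129180365-129180614, plus strand: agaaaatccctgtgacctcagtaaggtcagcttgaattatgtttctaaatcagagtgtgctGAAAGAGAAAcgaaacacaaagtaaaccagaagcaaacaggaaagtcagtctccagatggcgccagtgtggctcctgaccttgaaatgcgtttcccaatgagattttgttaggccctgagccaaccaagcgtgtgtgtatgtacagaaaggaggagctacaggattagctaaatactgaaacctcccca
Clec4a3, chr6:122952394-122952643, plus strand: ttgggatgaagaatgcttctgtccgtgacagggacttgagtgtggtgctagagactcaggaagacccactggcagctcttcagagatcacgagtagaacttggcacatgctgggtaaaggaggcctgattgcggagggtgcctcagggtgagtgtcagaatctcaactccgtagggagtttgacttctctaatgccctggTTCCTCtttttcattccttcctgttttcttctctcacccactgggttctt
Clec7a, chr6:129472780-129473029, minus strand: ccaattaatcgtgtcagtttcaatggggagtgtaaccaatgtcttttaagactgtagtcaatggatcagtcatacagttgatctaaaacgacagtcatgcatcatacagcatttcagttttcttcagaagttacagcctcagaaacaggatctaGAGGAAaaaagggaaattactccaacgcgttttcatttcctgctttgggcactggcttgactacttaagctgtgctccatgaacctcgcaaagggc
Clec4g, chr8:3720652-3720901, minus strand: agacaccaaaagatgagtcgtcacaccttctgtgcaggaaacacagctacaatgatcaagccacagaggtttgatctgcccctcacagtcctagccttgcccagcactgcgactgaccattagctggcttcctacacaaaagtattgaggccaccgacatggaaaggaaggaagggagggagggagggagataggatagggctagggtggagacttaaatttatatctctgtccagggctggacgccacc

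The window of Clec2d held 1 match to the spaced GAAA repeat, starting 189 bases before the start, and it was the only member gene of 9 in the promoter table with one. Over all 32851 windows of this length the share with a match was 2.98%. GAGGAA was present in 5 of the 11 windows of the 9 genes, against 23.3% of all windows, and the 5 belonged to Clec4a3, Clec4d, Clec7a (both of its overlapping windows) and Clec12a. Clec4n had no match by symbol in the table. These matches describe the letters of the windows and do not show that a factor binds there. Because the motifs were chosen with the sequences already seen, setting these counts beside the shares of all windows tests nothing.

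Clec2d had the highest ratio of deposited signals among the 10003 genes. Its signal was 675 in the antagomir-122 pool and 106 in the control pool. The first lay at 2.84 times the floor and the second at 0.44 times the floor, so the fold is given against the floor, as at least 2.84-fold higher (log2 ratio as deposited 2.67). It rested on 1 probe set, without a cross-hybridisation suffix, and no other probe set of Clec2d was available to set beside it. The gene entered the set above the floor through its antagomir-122 signal. When dim signals were raised to the floor, the log2 ratio was 1.503 and 11 genes had a higher one. With the floor at the 80th percentile Clec2d was under it.

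The receptors and relatives of Clec2d had dim signals. Of 13 listed Clr relatives and Nkrp1 receptors, 9 had a probe set and 1 was above the floor. That gene was Clec2h, at least 1.28-fold lower (signals 215 and 304), on a probe set whose suffix marks possible cross-hybridisation. Klrb1b, which encodes the inhibitory receptor NKR-P1B for the Clec2d protein, had signals of 118 and 100.5 on its brightest of 5 probe sets, all under the floor on both arrays. Klrb1f, another Nkrp1 receptor, had 175 and 138, and Klrb1a had 16.8 and 22.7. No fold is given for these genes, because both arrays were under the floor.

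**Figure D1:**
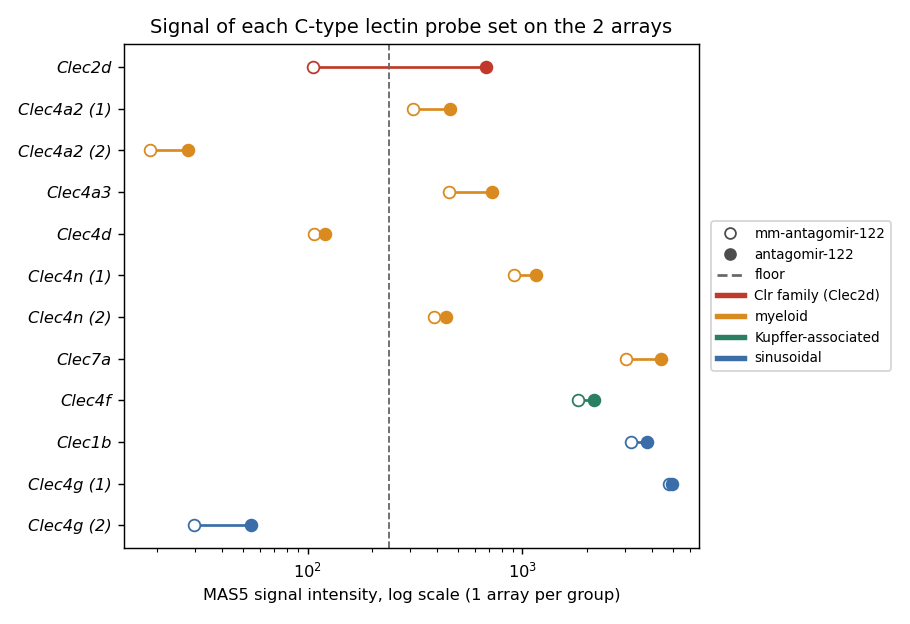
Signal of each of the 12 probe sets in the antagomir-122 pool (filled) and the mm-antagomir-122 pool (open) on a log axis, with the floor of 238 dashed and colours for the 4 kinds of gene; numbers in brackets separate probe sets of 1 gene. All 12 filled points lie to the right of their open points, by most for Clec2d, whose signals of 106 and 675 lie on opposite sides of the floor.

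The myeloid receptors were the next highest. Of the 6 listed, 4 were above the floor, and their log2 ratios ran from 0.34 to 0.67 with a median of 0.56. Clec4a3, a member of the dendritic cell immunoreceptor group, had signals of 724 and 456 and was 1.59-fold higher. Clec4a2, which encodes the inhibitory dendritic cell immunoreceptor Dcir1, had 461 and 309 and was 1.49-fold higher. Both therefore lay beside the 1.5-fold threshold, on opposite sides of it. Clec7a, which encodes dectin-1, the receptor for fungal beta-glucans, had 4435 and 3043 and was 1.46-fold higher. Its ratio was 2.36 times the probe-set spread of the brightest tercile, against 2.25 times that of the middle tercile for Clec4a3 and 1.65 times that of the dimmest tercile for Clec4a2.

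Probe sets of 1 gene differed in how far they could be read. Clec4n, which encodes the mannan receptor dectin-2, had signals of 1151 and 910 on one probe set and 440 and 388 on the other, 1.26-fold and 1.13-fold higher. Both carry a suffix, the brighter one for possible cross-hybridisation and the dimmer for transcript variants. The second probe set of Clec4a2 had signals of 27.6 and 18.5, both far under the floor. A further probe set, annotated to Clec4b1 and Clec4a2 together and so not used for either, had 381 and 408, a log2 ratio of -0.10. That value lay on the other side of 0 from the probe set of Clec4a2 alone. Clec4d, which encodes a receptor that pairs with Mincle, had 120 and 107 and was under the floor on both arrays, as were both probe sets of Clec4e, the gene of Mincle (45.5 and 85.2 on the brighter).

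The Kupffer and sinusoidal receptors had the smallest ratios. Clec4f, the galactose-binding receptor used as a Kupffer cell marker, had signals of 2147 and 1824 and was 1.18-fold higher. Clec1b, which encodes CLEC-2, had 3823 and 3199 and was 1.19-fold higher. CLEC-2 is the podoplanin receptor best known from platelets and is also made by liver macrophages of the mouse, so its place among the sinusoidal genes is not settled by the signal. Clec4g, which encodes LSECtin of the sinusoidal endothelium, had 4997 and 4803 and was 1.04-fold higher. The second probe set of Clec4g was under the floor on both arrays, at 54.4 and 29.6. Over these 3 genes the median log2 ratio was 0.24. Clec4g lay well inside the probe-set spread of the brightest tercile, and Clec4f and Clec1b were at 1.03 and 1.12 times it.

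**Figure D2:**
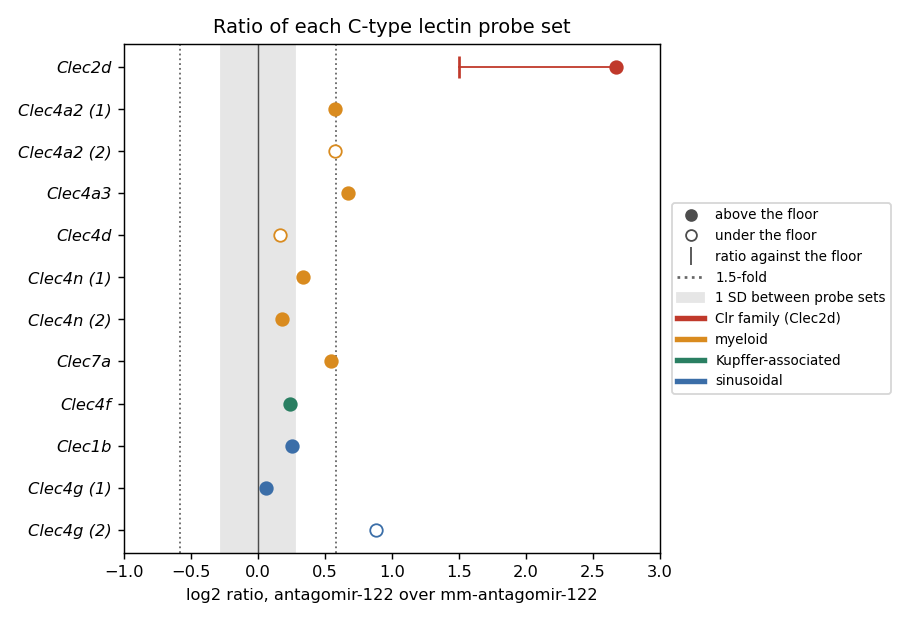
The log2 ratio of each probe set, filled above the floor and open under it, with the grey band at 1 SD between probe sets (0.28), dotted lines at 1.5-fold and a tick for the ratio of Clec2d against the floor. The 4 myeloid genes have their brightest probe sets between 0.34 and 0.67. Those of Clec4f, Clec1b and Clec4g lie between 0.06 and 0.26, inside the band. The second probe set of Clec4g, under the floor, is at 0.88.

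Among the 8 genes above the floor, 2 were at least 1.5-fold higher (Clec2d and Clec4a3) and 0 were at least 1.5-fold lower. Of all genes above the floor, 5.12% were higher by that much and 2.62% lower. All 8 had a ratio above 0 as deposited, as did 50.3% of all genes, but Clec4g lay below 0 (-0.08) once each array was centred on its median. The median log2 ratio of the 8 was 0.44, and without Clec2d it was 0.34. Because the genes were chosen with these ratios known, the counts describe them and test nothing. On the brightest probe sets, the ratios of the 4 myeloid genes did not overlap those of the 3 Kupffer and sinusoidal genes. The gap between the nearest, Clec4n and Clec1b, was 0.08 on the log2 scale, less than the spread between probe sets. The dimmer probe set of Clec4n had 0.18, below Clec1b (0.26) and Clec4f (0.24). The difference between the medians of the myeloid group and of the Kupffer and sinusoidal group was 0.33.

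The order of the ratios was Clec2d, Clec4a3, Clec4a2, Clec7a, Clec4n, Clec1b, Clec4f and Clec4g. Of the steps between neighbours in that order, the step from Clec2d to Clec4a3 was 0.83 with dim signals raised to the floor. The probe-set spread was 0.35 in the dimmest tercile, where Clec2d lies. That spread comes from probe sets above the floor and leaves out animals. It therefore cannot judge a step that rests on a control signal under the floor. Each remaining step was smaller than the spread of 0.28 over all pairs, so the order below Clec2d is not resolved either. With quantile normalization and with loess correction, Clec7a moved above Clec4a2 and past 1.5-fold. Scaled on the hybridization controls, Clec4n, Clec4a2, Clec4a3, Clec7a and Clec2d were past 1.5-fold, and 16.9% of all genes were at least 1.5-fold higher.

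**Figure D3:**
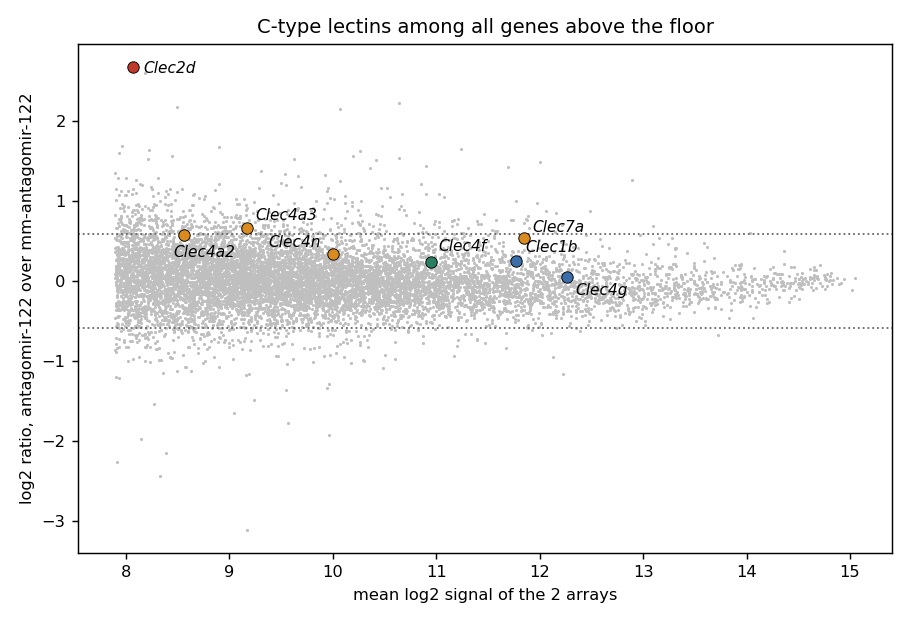
The log2 ratio of each of the 10003 genes above the floor (grey) against the mean log2 signal of its brightest probe set, with the 8 C-type lectin genes coloured and dotted lines at 1.5-fold. Clec2d stands at the top of the plot at the dim end, with a control signal under the floor, where the grey points spread most, and Clec4g lies within the bulk of genes at the bright end.

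Each gene was set beside markers of the cells it is known from. Of 14 Kupffer cell markers 13 were above the floor, all 13 had ratios above 0 as deposited and under the 4 other scalings run, and the median was 0.41 (range 0.14 to 0.69). Clec4f lay above 3 of these markers and below 10. The next marker below it was Folr2, a folate receptor gene, at 0.23 and the next above was the complement gene C1qb at 0.32, while the complement gene C1qc and Adgre1 (F4/80) had the highest ratios of the list, 0.69 and 0.60. The summed signal of the 13 markers was 79931 in the antagomir-122 pool and 59948 in the control pool. In a bulk RNA pool, more cells of a type and more RNA per cell cannot be told apart, and the part of cell numbers in the ratios of these lectins was not tested.

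Markers of sinusoidal endothelium had no common direction. All 15 were above the floor, 8 had a ratio above 0 as deposited (4 with median centring, 11 on the hybridization controls), and the median was 0.01 (range -0.73 to 0.28). Clec4g, at 0.06, lay above 9 of them and below 6, and Clec1b lay above 14 and below Stab1 (0.28), a scavenger receptor gene. The lowest was Tek, the angiopoietin receptor, which was 1.66-fold lower (signals 386 and 641). The summed signal of the list was 24720 and 25461. Clec1b also lay above all 4 of the platelet markers above the floor, of 9 listed, whose ratios ran from -0.47 to 0.26 with a median of 0.19. Of these, Pf4, the platelet factor 4 gene, had the highest ratio (0.26). Among the 13 Kupffer cell markers above the floor, with a median of 0.41, Clec1b lay above 3 and below 10.

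The few markers of recruited monocytes above the floor had a median close to that of the myeloid lectins. Of 13 listed, 11 had a probe set and 5 were above the floor, with a median of 0.51 (range 0.31 to 0.63) and summed signals of 5117 and 3584. Clec4a3 lay above all 5, Clec4a2 above 4, Clec7a above 3 and Clec4n above 1. The 5 were S100a6 (0.63), the Fc receptor gene Fcgr1 (0.58), Plac8 (0.51), Cd14 (0.50) and the chemokine receptor gene Ccr2 (0.31). A second probe set of Fcgr1 had 0.16, and those of Ccr2 had 0.39 and 0.46. Itgam, which encodes the integrin CD11b, was under the floor on both arrays (146 and 97.5). So was Cx3cr1, a chemokine receptor gene, whose signals ran the other way (168 and 235 on its brighter probe set). Clec7a, which resident macrophages also make, lay above 11 of the 13 Kupffer cell markers. Clec4a3, Clec4a2 and Clec4n also lay within the range of those markers (0.14 to 0.69), so the ratios do not set recruited monocytes apart from Kupffer cells. Clec4a3, Clec4a2 and Clec7a lay above the highest dendritic cell marker above the floor, Itgax (0.53), and Clec4n lay below it.

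Markers of other leukocytes were read on their brightest probe sets. Those of neutrophils and B cells had higher medians than the myeloid lectins, and those of NK, T and dendritic cells had lower ones. The 8 neutrophil markers above the floor, of 13 listed, had a median of 1.09, with summed signals of 8902 and 3157. That median falls between Mpo (signals 400 and 164) and Ltf (368 and 198), whose control signals were under the floor. Against the floor they were at least 1.68-fold and 1.54-fold higher, so the neutrophil median depends on dim control signals. Their highest ratios were those of S100a8 (2.22) and S100a9 (2.14), and Elane, at -0.31, lay below 0. The 6 B cell markers had a median of 0.67 and summed signals of 4805 and 2700, 6 NK and T cell markers a median of 0.49 and 4268 and 2663, and 4 dendritic cell markers a median of 0.31 and 2367 and 1952. Among the B cell markers, Ighm had the highest ratio (1.09) and signals of 2785 and 1309. Its 3 other probe sets above the floor had 0.08 to 0.42, so the B cell median depends on the choice of probe set. Over the 42 markers of Kupffer cells and leukocytes above the floor, 41 had a ratio above 0 as deposited (39 with median centring, 40 with quantile normalization or loess correction) and 14 were at least 1.5-fold higher. Of all genes above the floor, 50.3% had a ratio above 0 as deposited and 5.12% were at least 1.5-fold higher. Among the 14, Mpo, Ltf and Pax5 had control signals under the floor and were still past 1.5-fold against it. With dim signals raised to the floor, 2 of the 42, S100a8 and S100a9, had a higher ratio than Clec2d. As deposited, 11 had a higher ratio than Clec4a3. No marker was listed at 0. The 12 hepatocyte markers, which check the labelled tissue, were all above the floor on at least 1 probe set, with a median of -0.02 and summed signals of 227895 and 227113. Of these, 1 was past 1.5-fold, namely Ass1, a urea cycle gene, which was 2.17-fold lower (signals 245 and 531). That value rests on 1 probe set, with an antagomir-122 signal just over the floor of 238. It was far dimmer than Cps1 of the same list (25198 and 24808), so it is a weak reading of the gene.

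**Figure D4:**
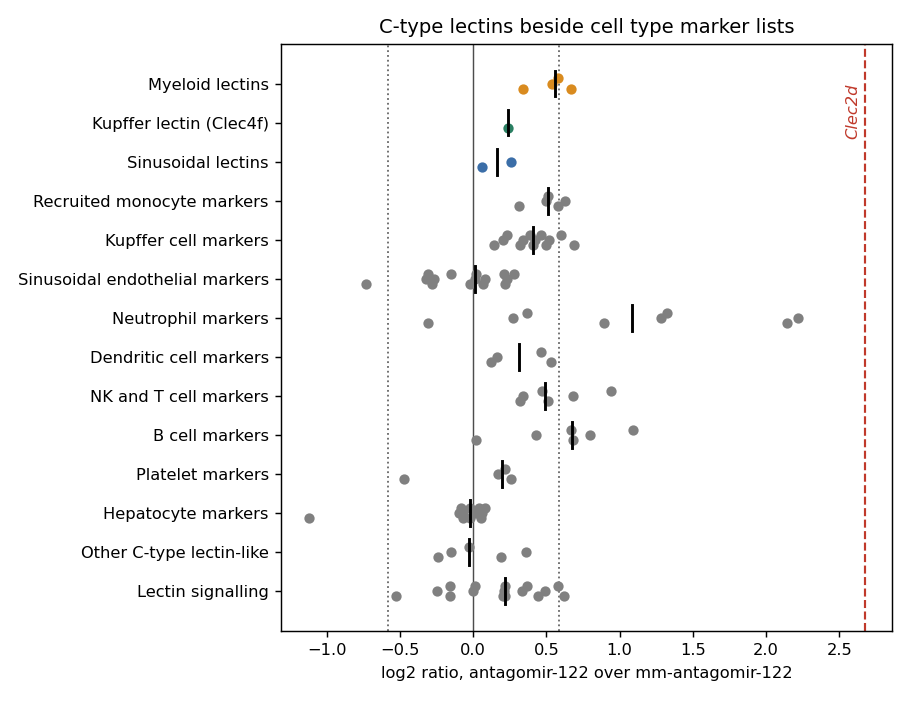
Log2 ratios of the genes above the floor in each group of lectins (coloured) and in each marker list (grey), with black bars at the medians, dotted lines at 1.5-fold and a dashed line at the ratio of Clec2d. The myeloid lectins (median 0.56) sit near the recruited monocyte markers (0.51) and the Kupffer cell markers (0.41), Clec4g near the sinusoidal endothelial markers (0.01), and the dashed line rests on a control signal under the floor; against the floor the ratio of Clec2d is at least 1.503, to the left of S100a8 (2.22) and S100a9 (2.14).

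Most other genes of the family were too dim to be read. Of 48 further C-type lectin-like receptors, Clr relatives and Nkrp1 receptors listed from general knowledge, 37 had a probe set and 6 were above the floor. Of these 6, 0 passed 1.5-fold upwards, 0 passed it downwards and 2 had a ratio above 0. Over all genes above the floor the shares were 5.12%, 2.62% and 50.3%. Mrc1, the macrophage mannose receptor, had signals of 4098 and 3592 and a log2 ratio of 0.19. Cd72, an inhibitory receptor of B cells, had 276 and 215 and was at least 1.16-fold higher. The endothelial genes Clec14a and Cd93 had -0.24 and -0.03, and Cd302, an endocytic receptor gene, had -0.15.

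The signalling genes downstream of these receptors ran in both directions. Of 24 listed, 16 were above the floor, 11 had a ratio above 0, 1 passed 1.5-fold upwards and 0 downwards, with a median of 0.21. Of all genes above the floor, 50.3% had a ratio above 0, 5.12% passed 1.5-fold upwards and 2.62% downwards. The signalling gene past 1.5-fold was Syk, the kinase that dectin-1 and CLEC-2 recruit, at signals of 783 and 510 (1.53-fold) and, on a second probe set, 456 and 286 (1.59-fold). Its other 2 probe sets were under the floor on both arrays. Fcer1g, the adaptor through which dectin-2 signals, had 3624 and 2802 (1.29-fold higher), and Tyrobp, a related adaptor of myeloid and NK cells, had 5589 and 3977 (1.41-fold higher). Nfatc1, a transcription factor gene, had the lowest ratio of the list at -0.53 on its brightest probe set, and its other probe sets ran from -0.08 to 0.33. Inpp5d, the gene of the inhibitory phosphatase SHIP1, had 0.58 on its brightest probe set and -0.07 on another. Pdpn, which encodes podoplanin, the ligand of CLEC-2, was under the floor on both arrays (163 and 144).

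Of the 10 genes, 9 lie on chromosome 6, and Clec4g lies on chromosome 8. By gene order in RefSeq's table for GRCm38.p6, Clec4a3, Clec4a2, Clec4n and Clec4d follow one another, with Clec4a4, Clec4b1 and Clec4b2 among them. Along that cluster the log2 ratios were 0.67, 0.58 and 0.34 for Clec4a3, Clec4a2 and Clec4n, while Clec4b1 (73.9 and 110) and Clec4d were under the floor. Next to the cluster, the complement receptor gene C3ar1 had 0.37 and Necap1, an endocytosis gene, had 0.22. Clec2d lies between Clec2e (186 and 64.2) and Cd69 (97.7 and 119), each of which was under the floor on both arrays. Clec1b and Clec7a lie in the same stretch as Clec12a, and the gene between them with a probe set, Clec1a, had 175 and 287, so that it was at least 1.204-fold lower by a probe set with a mean under the floor.

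**Figure D5:**
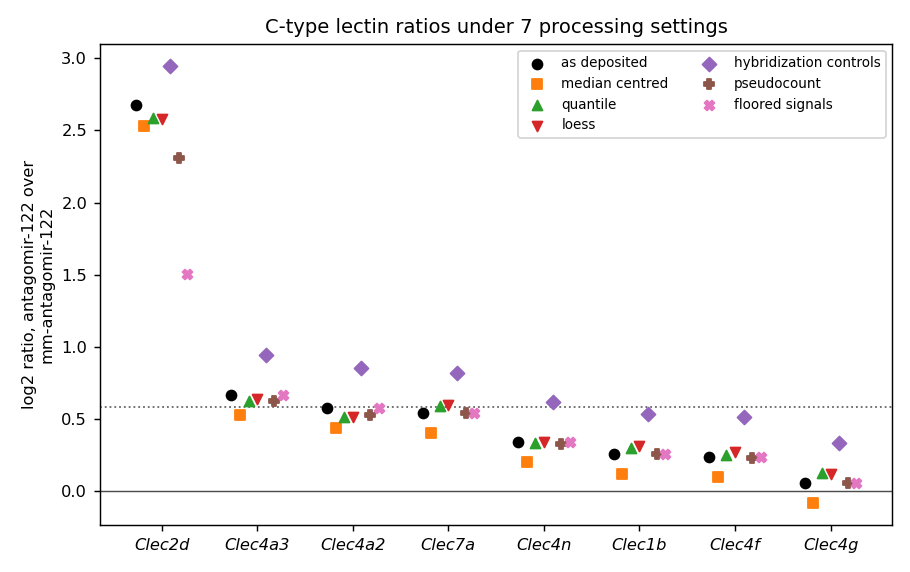
Log2 ratios of the 8 genes above the floor as deposited (black) and under 6 alternatives, with the dotted line at 1.5-fold. Clec2d runs from 1.503 with floored signals to 2.95 with hybridization controls and stays above the other genes, while Clec4a3, Clec4a2, Clec7a and Clec4n cross the 1.5-fold line between alternatives and Clec4g reaches -0.08 with median centring.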

How the data were processed

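Liver RNA of 2 pools of 3 mice each was hybridised to 2 Affymetrix arrays of one colour, with 1 array for each group, and titles gave the groups. The deposited table holds linear intensities, which come from MAS5 according to the submitters' processing notes (no version is named). Both columns of 45101 probe sets have a 2% trimmed mean of 500.0, which shows that the authors scaled them to one target. Detection calls and probe-level values were not used here, and dim intensities may be background. Genes were named by the platform annotation of the array, an old one, and symbols were updated through RefSeq's GRCm38.p6 table. A total of 34945 probe sets had 1 gene, 932 had several and 9160 had none in the annotation used here.

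Log2 ratios used the deposited intensities with no pseudocount. The value of a gene is that of its brightest probe set with a mean log2 signal at or above the 60th percentile of non-control probe sets. Where 1 signal lay under it, the floor replaced that signal and the fold is a lower bound, which leaves out the error of the other signal. No test was run, because 1 array per group leaves no replicate error, and precision is limited by that number. Gene members and lists were chosen with earlier results of these data known. The naming rule took every probe set of the members, their direct partners, and up to 6 genes of each list with the largest absolute ratio. Genes named outside the rule (promoter neighbours, and markers or lectins placed beside a member) were chosen after their values were seen. Promoter windows came from RefSeq on GRCm38.p6. The calculation was tested on simulated data. Python 3.11.15, pandas 2.3.3, numpy 2.4.6 and statsmodels 0.14.6 were used. Alternatives were other scalings, floors, thresholds, adding 37.8 to both signals, averaging over probe sets and leaving out suffixed probe sets, and leaving out Clec2d was added after seeing the data.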

Additional observations from a re-analysis of the deposited data

How the results depend on the processing

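No paired analysis was possible because each group had 1 array, and for the same reason no replicate could be left out. The count of C-type lectins at least 1.5-fold higher was 2 as reported, beside 5.12% of all genes. It was 1 with each array centred on its median (Clec2d, beside 2.79%) and 5 with scaling on the hybridization controls (16.9%). With the floor at the 80th percentile it was 0 of 5 genes (3.25%), because Clec2d and Clec4a3 were under that floor, as was Clec4a2. At a threshold of 1.4-fold it was 4 (8.16%), and at 2-fold it was 1 (Clec2d, 0.83%). Without Clec2d it was 1. The count of other C-type lectins at least 1.5-fold higher, 0 as reported, was 1 with scaling on the hybridization controls (Cd72). With the floor at the 40th percentile it was 5 of 19 genes, beside 8.8% of all genes. With no floor it was 10 of 37, beside 15.2%. No setting run put a member at least 1.5-fold lower. The medians of all members, of the myeloid members and of the Kupffer-associated and sinusoidal members moved by less than the probe-set spread in every alternative run, the last from 0.10 to 0.51. Clec2d had log2 ratios from 1.503 to 2.95 over 10 alternatives, and 2.31 with the pseudocount. Clec7a ran from 0.40 to 0.82 and Clec4a3 from 0.53 to 0.94. Without suffixed probe sets, which removed Clec4n, 1 gene had a higher ratio than Clec2d, and with no floor 150 genes did. Counts over all genes, 512 higher and 262 lower as reported, were 1163 and 531 with the floor at the 40th percentile, 184 and 98 at the 80th, 2766 and 1714 with none, 816 and 485 at 1.4-fold and 83 and 31 at 2-fold. Fewer or more genes entered under each floor. Signal over background limits the readings of Clec2d, whose control signal was under the floor, and of Clec4d.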

Other observations

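Lectins made by hepatocytes and soluble collectins showed small ratios. Of 12 listed, 7 were above the floor, 4 had a log2 ratio above 0, and none was past 1.5-fold in either direction. Of all genes above the floor, 50.3% had a ratio above 0, 5.12% were past 1.5-fold upwards and 2.62% downwards. Asgr1 and Asgr2, the subunits of the asialoglycoprotein receptor that clears desialylated glycoproteins from plasma, had -0.06 and -0.18, at signals of 9383 and 9762 and of 4472 and 5071. The mannose-binding lectin genes Mbl1 and Mbl2 had -0.23 and 0.11. Colec10 and Colec11, which encode collectins of the lectin complement pathway, had the highest ratios, 0.45 (1229 and 901) and 0.31 (3981 and 3220), and a second probe set of Colec11 had 0.43.

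Cytokine genes known to follow engagement of these receptors were mostly dim. Of 18 listed, 6 were above the floor, with a median log2 ratio of 0.14 and 1 past 1.5-fold upwards, beside 5.12% of all genes. That gene was Ccl4, a chemokine gene, which was 1.53-fold higher (587 and 383). Csf1, the macrophage growth factor gene, had 0.35, Il1b had 0.19 and Il1rn, the interleukin-1 receptor antagonist gene, had 0.09 with other probe sets from -0.28 to 0.71. Cxcl1 had -0.32. Tnf was under the floor on both arrays (30.6 and 142), as were Il6 (46.6 and 34.9) and Ccl2 (173 and 32.4).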
